A study of Sus scrofa with 8 samples.

Results

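The difference between altitudes within 1 breed was described here for lung of Tibetan pigs, as TH (Tibetan pigs at 3500 m) minus TL (Tibetan pigs at 40 m), with 2 arrays per group. Of 43603 non-control probes on the array, 33559 were taken, those flagged as well above background on 1 or more of these 4 arrays, and no difference in expression was used to choose them. They comprise 2959 probes whose target is a RefSeq transcript and 30600 probes with other targets. TH pigs were born and kept in the highland, whereas TL pigs were of the same highland population and were moved to the lowland at 1 month of age. All were females of 6 months, kept at different farms, and feed was withheld before harvest. Duroc pigs from the lowland, either moved to the highland (DH) at 1 month or kept in the lowland (DL), filled the other 4 of 8 arrays and contributed to the estimate of the spread. Each array held lung RNA of 1 pig, labeled with 1 dye, and thus the model of altitude consists of 2 pigs against 2 pigs which differ also in farm and in having been moved.

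Low oxygen stabilizes the α subunits of the hypoxia-inducible factors, HIF1A and EPAS1, which are otherwise marked for degradation by prolyl hydroxylases such as EGLN1 and EGLN3. The lung adjusts to low oxygen through vascular tone, alveolar fluid and surfactant, and it is at the same time a large site of immune defense. The array reads RNA of a whole piece of lung, so that fewer cells of a type and less RNA per cell cannot be told apart.

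The TH arrays shared slide 1 with DL and the TL arrays shared slide 2 with DH, and therefore slide and group cannot be told apart in TH minus TL. The arrays also differed in their signals. Of all probes, 29316 and 27797 were well above background on the TH arrays and 31722 and 31641 on the TL arrays, and the median raw spot signal was 230 and 226 in TH and 324 and 333.5 in TL. The processed signals of RefSeq-target members had nearly equal medians in log2 units, 11.41 and 11.40 in TH and 11.28 and 11.33 in TL, while those of other members were 8.48 and 8.46 in TH and 9.31 and 9.35 in TL. Spike-in probes, which report RNA added in the laboratory, had mean log2 signals of 11.81 and 11.84 in TH and 11.19 and 11.20 in TL. In the deposited values, which have 1 common distribution on every array with a median of 7.40, the medians of RefSeq-target members became 11.47 and 11.45 in TH and 10.97 and 10.97 in TL. The part of these signal differences in the results below was not tested. Lung markers were bright in both groups: SFTPC, the hydrophobic surfactant protein of alveolar type II cells, was at 18.60 and 18.55 in TH and at 18.79 and 18.77 in TL (log2).

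Differences between TH and TL were widespread. By limma at FDR below 0.0001, 13107 of 33559 probes (39.1%) were called, 7234 (21.6%) higher and 5873 (17.5%) lower in TH. Among RefSeq-target probes 1304 of 2959 (44.1%) were called, 997 (33.7%) higher and 307 (10.4%) lower in TH. Counted with 1 probe per gene, 786 of 1736 named RefSeq genes (45.3%) were called, 610 higher (35.1%) and 176 lower (10.1%). Among other probes 11803 of 30600 (38.6%) were called, 6237 higher (20.4%) and 5566 lower (18.2%). The count rested on the arrays that gave the spread. With the 4 Tibetan arrays alone limma called 0 probes at this FDR, 25984 at FDR below 0.05 and 26522 at an unadjusted p below 0.05. Without TL replicate 1 or 2 the count over all probes was 4638 or 4642, and without TH replicate 1 or 2 it was 5866 or 6027.

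The direction of these calls depended on how the arrays were centered. Of the RefSeq-target calls 76.5% were higher in TH in the deposited values and 89.6% when processed signals were scaled to the 75th percentile, against 39.2% after centering on RefSeq-target members and 13.2% after centering on the spike-in probes. Over all members these shares were 55.2%, 63.0%, 24.5% and 5.79%. The median difference of RefSeq-target members was 0.36 in log2 units in the deposited values, 0.61, -0.13 and -0.51 under the same 3 alternatives. Centering on RefSeq-target members makes their median equal on all arrays. Nothing is therefore read from the sign of -0.13 or from the share of 39.2%. Differences below are those of the deposited values, to be read beside that median of 0.36 and beside 0.41 for RefSeq genes with 1 probe each.

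The range was wider for other probes than for RefSeq-target probes, chiefly on the lower side. It includes probes admitted through 1 group alone, whose differences are against background. Of other probes 2798 (9.14%) were well above background on both TL arrays and no TH array, against 297 in the opposite direction. Their part in the lower side of the range was not tested. The middle 80% of RefSeq-target probes lay between -0.65 and 1.63, with quartiles of -0.13 and 0.98, and the middle 80% of other probes lay between -1.99 and 1.40, with quartiles of -0.84 and 0.74. The medians were 0.36 and 0.09. A difference below -1 was seen for 153 RefSeq-target probes (5.17%) and for 6869 other probes (22.4%). A difference above 1 was seen for 713 (24.1%) and 5539 (18.1%), a larger share of the RefSeq-target probes. The median SD between arrays of the same group was 0.044 in TH and 0.037 in TL (n = 2 each). This median does not bound single probes, some of which differed far more between arrays of a group. Genes nearest to the percentiles illustrate the range. GP91-PHOX, the catalytic subunit of the phagocyte oxidase, stood at the tenth percentile with 16.02 and 16.08 in TH and 16.69 and 16.72 in TL, and it was lower in TH in the deposited values (adjusted p = 1.84e-05) but at a difference of 0.05 and in the opposite direction with processed signals scaled to the 75th percentile. GATA6, a transcription factor of lung epithelium, lay at the lower quartile with 12.45 and 12.48 in TH and 12.55 and 12.65 in TL and was not called (adjusted p = 0.0527). HSD17B2, which oxidizes estradiol, lay at the median with 13.57 and 13.52 in TH and 13.19 and 13.19 in TL and was not called (adjusted p = 0.000174). At the upper quartile APTX, a DNA repair protein, had 11.06 and 11.01 in TH and 10.07 and 10.05 in TL (adjusted p = 2.88e-06), and at the ninetieth percentile CCL19, a chemokine that guides lymphocytes and dendritic cells, had 14.19 and 14.15 in TH and 12.51 and 12.56 in TL (adjusted p = 1.15e-06). Of these 5 genes 2, GATA6 and HSD17B2, were thus not called.

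The kind of target and the brightness of a probe went along with its difference. Probes for ENSSSCT transcripts had a median of 0.28 (29.1% higher, 8.79% lower) and stood close to the RefSeq-target probes, whereas probes for TC consensus sequences had a median of -0.16 (17.5% higher, 24.7% lower). RefSeq-target probes with a mean log2 value between 6 and 8 had a median of 0.76, and those below 6 had 0.62. The median was 0.75 between 8 and 10, 0.62 between 10 and 12, 0.14 between 12 and 14, and 0.04 at 14 and above. With processed signals scaled to the 75th percentile the medians did not decrease but went from 0.44 below 6 to 0.74 at 14 and above. Other probes below 6 had a median of -0.32, and in the 5 brighter strata it lay between 0.06 and 0.26. Scaled to the 75th percentile, the median of other probes went from -0.47 below 6 to 0.75 at 14 and above. Detection differed in the same manner: 50 RefSeq-target probes (1.69%) and 2798 other probes (9.14%) were well above background on both TL arrays and on no TH array, against 28 and 297 in the opposite direction.

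The RefSeq genes with the widest differences among those well above background on all 4 arrays were led by RGS5, MC1R and CD79A on the higher side and by HSP70.2 and TNNI3 on the lower side. RGS5, a regulator of G protein signaling that marks pericytes, had log2 values of 12.90 and 12.95 in TH and 8.52 and 8.49 in TL, a difference of 4.42 ± 0.075 (SE; adjusted p = 8.38e-07) or 21.4-fold. CD79A, a signaling chain of the B cell receptor, had 12.46 and 12.51 in TH and 8.25 and 8.32 in TL (18.4-fold, adjusted p = 3.84e-07). MADCAM1, an adhesion molecule of mucosal venules that captures lymphocytes, had 11.93 and 11.95 in TH and 8.23 and 8.27 in TL (12.9-fold). In each of these genes both TH arrays were far above both TL arrays, and the arrays of a group lay close to each other. Both traits follow from the choice of the largest called differences. PGLYRP1, an antibacterial protein that binds peptidoglycan, had 14.54 and 14.53 in TH and 10.89 and 10.89 in TL (12.5-fold, adjusted p = 3.84e-07). PLTP, which transfers phospholipids between lipoproteins, had 12.20 and 12.20 in TH and 8.82 and 8.81 in TL (10.5-fold), and its second RefSeq-target probe gave 2.59. CD70, the ligand of the costimulatory receptor CD27, had 10.05 and 10.08 in TH and 6.71 and 6.95 in TL (9.38-fold). Of these, PGLYRP1 was the brightest in TH.

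Several of the leading genes are known chiefly from tissues other than lung. MC1R, the melanocortin receptor of pigment cells, had 11.02 and 10.87 in TH and 6.69 and 6.66 in TL (19.2-fold, adjusted p = 6.95e-07). FABP7, a fatty acid binding protein of glia, had 8.87 and 9.01 in TH and 5.40 and 5.48 in TL (11.3-fold), and PRM2, a protamine that packs sperm DNA, had 8.34 and 8.40 in TH and 5.0 and 5.18 in TL (9.7-fold). The TL values of FABP7 and PRM2 were among the dim ones of the array, though well above background on both arrays. The neuropeptide genes NPW (9.37 and 9.41 in TH and 6.19 and 6.19 in TL) and TAC3 (11.78 and 11.76 in TH and 8.65 and 8.51 in TL) were higher in TH by 9.22-fold and 9.13-fold. CYP2E1, a cytochrome that oxidizes ethanol, had 13.36 and 13.37 in TH and 10.28 and 10.24 in TL (8.63-fold, adjusted p = 3.84e-07).

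Of the genes lower in TH, HSP70.2, an inducible heat shock protein, was the most changed, with 15.03 and 14.94 in TH and 17.95 and 17.90 in TL, a difference of -2.94 ± 0.045 (SE; adjusted p = 6.62e-07), that is 7.68-fold lower. HSPA6, of the same family, had 12.24 and 12.30 in TH and 14.36 and 14.45 in TL (4.39-fold lower, adjusted p = 1.59e-06). Members of this family have similar sequences, and their probes may share targets. TNNI3, the inhibitory troponin of heart muscle, had 11.45 and 11.45 in TH and 14.02 and 14.04 in TL (5.97-fold lower), and its 4 RefSeq-target probes all lay between -3.08 and -2.07. The immediate early receptor NR4A3 had 10.93 and 10.91 in TH and 13.12 and 13.08 in TL (4.53-fold lower), and KLF5, a zinc finger factor of epithelium, had 10.06 and 10.08 in TH and 12.47 and 12.49 in TL (5.33-fold lower), while further RefSeq-target probes of these genes were not called and gave -1.09 for NR4A3 and 0.03 for KLF5. SRSF5, a splicing factor, had 12.18 and 12.22 in TH and 14.58 and 14.53 in TL (5.14-fold lower), and TTC14, a tetratricopeptide repeat protein, had 11.11 and 11.26 in TH and 13.39 and 13.41 in TL (4.63-fold lower). For SRSF5, KLF5, TNNI3 and HSPA6 the TL arrays stood apart, and each was above all arrays of the other groups.

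Defense genes were also among those lower in TH. LYZ, the lysozyme of macrophages and glands, had 13.49 and 13.47 in TH and 15.53 and 15.58 in TL (4.22-fold lower, adjusted p = 4.98e-07), and PMAP-36, a porcine cathelicidin, had 7.20 and 7.07 in TH and 9.47 and 9.57 in TL (5.22-fold lower). IFNE, an epithelial type I interferon, had 6.05 and 5.94 in TH and 8.43 and 8.47 in TL (5.48-fold lower). DMP1, a matrix protein of bone and dentin, had 7.72 and 7.96 in TH and 10.29 and 10.31 in TL (5.52-fold lower), with a second probe at -0.26, and OBP2B, an odorant binding protein, had 5.77 and 5.80 in TH and 7.85 and 7.78 in TL (4.09-fold lower, adjusted p = 8.64e-05). In all 24 genes the TH and TL arrays did not overlap, since only called genes were taken.

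Counted with 1 probe per gene, 24 RefSeq genes were well above background on both TH arrays and no TL array and 29 in the opposite direction, and for these the difference is a lower bound, taken against the dimmest probes that were well above background. Of the genes called, up to 5 in each direction are given. Those in TH but not TL were SCG2, a secretory granule protein of neuroendocrine cells, at least 32.7-fold higher with 9.32 and 9.35 in TH and 3.30 and 3.33 in TL, and MBL2, a mannose-binding lectin that activates complement, at least 16.6-fold higher with 8.35 and 8.38 in TH and 3.64 and 3.97 in TL. PI3, the elastase inhibitor elafin, was at least 13.9-fold higher, KLK1, tissue kallikrein, at least 7.14-fold and HTR1F, a serotonin receptor, at least 3.34-fold. Those in TL but not TH were MYL2, a myosin light chain of heart and slow muscle (at least 2.07-fold lower in TH, 3.05 and 3.12 in TH and 6.25 and 6.34 in TL), NPPB, the brain natriuretic peptide (at least 2.3-fold lower, 3.22 and 3.30 in TH and 6.46 and 6.45 in TL), DIO2, the deiodinase that forms active thyroid hormone (at least 1.62-fold lower), and the progesterone receptor PGR (at least 1.12-fold lower). The fitted differences had adjusted p-values between 6.55e-07 and 4.04e-05. SCG2 was not well above background in DH or DL either, whereas NPPB was brighter in both Duroc groups, 9.50 and 9.39 in DH and 9.15 and 9.19 in DL.

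The largest differences of all belonged to probes without a RefSeq target, of which single ones could be named. The COPA probe (a coat protein of Golgi vesicles) had 14.36 and 14.28 in TH and 6.14 and 6.13 in TL, 292-fold, but a second COPA probe gave 1.28. The COIL probe (coilin of nuclear Cajal bodies) had 11.18 and 11.03 in TH and 5.66 and 5.72 in TL, while 6 further COIL probes lay between -1.18 and 0.37. TFF1, a secreted trefoil peptide, had 9.94 and 9.95 in TH and 5.04 and 4.64 in TL (34.4-fold), LOC100037924 had 12.20 and 12.20 in TH and 5.95 and 5.88 in TL and LOC102164588 had 13.06 and 13.02 in TH and 8.18 and 8.18 in TL. So the largest values of COPA and COIL were not shared by the other probes of the same gene.

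On the lower side stood CA8, a protein related to carbonic anhydrases, with 6.30 and 6.50 in TH and 11.08 and 11.11 in TL (25.9-fold lower), and LOC100512873 with 10.13 and 10.20 in TH and 14.83 and 14.82 in TL. CALD1, which binds actin and calmodulin in smooth muscle, had 6.0 and 6.12 in TH and 10.24 and 10.27 in TL (18.3-fold lower). Again probes of 1 gene disagreed: a further probe of CALD1 gave 0.88 where the other 3 lay between -4.19 and -3.16. Of 487 genes with at least 2 RefSeq-target probes, 116 had all probes called in 1 direction, 184 had some called, 174 had none called, and 13 had calls in opposite directions.

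In each list of genes that follows the counts stand beside the 35.1% of RefSeq genes called higher and the 10.1% called lower. Of the 374 entries of these lists 13 were not well above background on either array of TH or of TL, so that their part in a count or median was fixed by the group that had signal. Genes of the HIF pathway moved in both directions. Of 11 measured genes of the list 3 were higher and 4 lower, with a median of 0.11 (0.68 in signals scaled to the 75th percentile and -0.44 against the spike-in probes). HIF1A had 13.61 and 13.65 in TH and 12.89 and 12.90 in TL and was higher (difference 0.73 ± 0.038, adjusted p = 2.62e-05), which no fit without 1 array called. EPAS1 (HIF2α) had 13.66 and 13.65 in TH and 13.79 and 13.79 in TL (adjusted p = 0.00722, not called) at its brightest RefSeq-target probe, whereas 2 probes with other targets gave -3.66 and -3.49. Of the prolyl hydroxylases, EGLN3 had 11.45 and 11.39 in TH and 8.95 and 8.89 in TL (5.66-fold, adjusted p = 8.03e-07) and EGLN1 had 12.90 and 12.84 in TH and 12.57 and 12.53 in TL (adjusted p = 0.00043, not called, and below 0 after either centering on RefSeq-target members or spike-in probes), both from probes with other targets. Further EGLN3 probes gave 2.52 and 0.05.

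Among the targets, PDK1, a kinase that keeps pyruvate out of the citric acid cycle, was higher with 11.46 and 11.47 in TH and 9.58 and 9.54 in TL (3.74-fold), and ANGPTL4, an inhibitor of lipoprotein lipase, was higher by 0.82. VEGFA, the main angiogenic growth factor, was lower with 11.70 and 11.69 in TH and 12.34 and 12.36 in TL (difference -0.65 ± 0.027, adjusted p = 1.11e-05), and its further probes gave -0.68 and -1.13. Also lower were HMOX1, heme oxygenase 1, with 14.93 and 14.91 in TH and 16.11 and 16.13 in TL, and TF, transferrin, with 13.91 and 13.92 in TH and 15.18 and 15.17 in TL. The EPO probe, with no TL array well above background, gave a lower bound of 5.8-fold for TH over TL and was not called (adjusted p = 0.00286). In every fit without 1 array 1 of the 3 higher calls was left, and 2 or 3 of the 4 lower ones.

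Vascular genes were divided likewise. EDN1, the vasoconstrictor endothelin 1, had 11.51 and 11.55 in TH and 10.20 and 10.17 in TL (difference 1.35 ± 0.031, adjusted p = 1.7e-06), and its receptor EDNRB was lower (-0.96) at its brightest probe and 0.09 (not called) at another. ACE, which forms angiotensin II, had 9.96 and 10.06 in TH and 8.22 and 8.26 in TL (3.4-fold, adjusted p = 1.83e-06), and NOS2, the inducible nitric oxide synthase, was higher by 0.69. NOS3, the endothelial synthase, had 14.18 and 14.17 in TH and 14.27 and 14.24 in TL (adjusted p = 0.035, not called, and 0.60 in signals scaled to the 75th percentile). The cyclooxygenases PTGS1 (-0.43) and PTGS2 (-0.75) were lower. In all, 3 of 10 vascular tone genes were higher and 4 lower (median -0.25, against 0.10 in signals scaled to the 75th percentile), and without any 1 array 2 and 1 were left. Of 11 endothelial genes 1 was higher and 2 lower (median 0.09, -0.78 against the spike-in probes). FLT1, a VEGF receptor, had 8.57 and 8.61 in TH and 7.92 and 7.95 in TL and ICAM1, a leukocyte adhesion molecule, had 16.02 and 15.99 in TH and 16.91 and 16.98 in TL, and PECAM1 of endothelial junctions was lower (-0.57). FLT1 turned to -0.78 against the spike-in probes, and it was called in no fit without 1 array. Without any 1 array 0 of these higher calls and 0 or 1 of the lower ones were left. Of 5 smooth muscle genes 0 were called by limma (1 higher and 3 lower at an unadjusted p below 0.05), with a median of -0.19 that became 0.56 in signals scaled to the 75th percentile.

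The water channels AQP4 and AQP1 had wider differences than the surfactant genes. SFTPD, a collectin of surfactant, was higher with 14.82 and 14.82 in TH and 14.04 and 14.04 in TL (difference 0.78 ± 0.023, adjusted p = 3.74e-06), and SFTPA1, of the same family, was lower with 13.28 and 13.27 in TH and 13.72 and 13.76 in TL (difference -0.46 ± 0.024, adjusted p = 2.68e-05) but at 0.12 in signals scaled to the 75th percentile and was called in no fit without 1 array. SFTPB and SFTPC, which spread the lipid film, had differences of -0.20 and -0.21 (adjusted p = 0.0051 and 0.0146, not called). Of 9 genes of water and ion transport 0 were higher (2 at an unadjusted p below 0.05) and 3 lower, with a median of -0.37 (-0.11 to -1.23 in the other scalings), and 2 or 3 of the lower calls were left without any 1 array. AQP4, a water channel, had 9.10 and 9.10 in TH and 10.67 and 10.77 in TL (3.08-fold lower), AQP1, that of microvessels, was lower (-1.48), and ATP1B1, the β subunit of the sodium pump (-0.97). AQP5 of type I cells was at 0.04 and the receptor AGER at -0.37, neither called.

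Secretory and neutrophil genes held large changes of both signs. Of 8 secretory and mucosal defense genes 3 were higher, PGLYRP1, lactoferrin (LTF, 1.29) and the polymeric immunoglobulin receptor (PIGR, 0.57), and 2 were lower, LYZ and the airway protein BPIFA1 (-1.42). Their median was -0.20, and 0.40 in signals scaled to the 75th percentile, and without a TH or a TL array 1 gene in each direction was left. Of 5 neutrophil genes the cathelicidins PMAP-36, PR39 (-1.25) and NPG4 (-0.67) were lower, while MMP9, a gelatinase of neutrophil granules, had 14.47 and 14.44 in TH and 13.06 and 13.02 in TL (2.66-fold). In all, 2 of the 5 were called higher and 3 lower. Their median was -0.67 (-0.22 to -1.34 in the other scalings), although their summed level was 14.83 and 14.81 in TH and 14.19 and 14.17 in TL (log2). MMP9 made up most of that sum in TH, so that it is not a trait of the list. Without a TH array 1 gene in each direction was left. Neutrophils, macrophages and blood are part of a lung piece, and the part of these cells in other results was not tested. HBB, β-globin, had 11.28 and 11.24 in TH and 11.38 and 11.42 in TL (adjusted p = 0.00512, not called) and the only measured ciliated cell gene, SPAG6, was at 0.21 (not called).

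Lymphocyte genes had the highest median of the 30 lists. Of 12 measured T, B and plasma cell genes 7 were higher and 0 lower (1 at an unadjusted p below 0.05), with a median of 1.49 beside 0.41 over RefSeq genes. The B cell gene CD79A, the T cell genes CD3E (2.03), CD3D (1.54) and CD2 (1.44) and the costimulators CD40 (0.58) and CD40LG (2.51) rose, whereas CD3G (0.04, with a further probe at 2.82 that was called), CD4 (-0.03), CD8A (0.52) and granzyme B (GZMB, -0.33) were not called. CD3E had log2 values of 12.60 and 12.68 in TH and 10.58 and 10.65 in TL, and the groups were widely apart. The summed level of the 12 genes was 16.59 and 16.56 in TH and 15.94 and 15.92 in TL. The median was 1.30, 1.0 and 0.18 in signals scaled to the 75th percentile, centered on RefSeq-target members and against the spike-in probes, and with the last 3 of 12 were higher and 3 lower. Without TL replicate 1 or 2 the higher calls were 4.

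TLR10 had 11.14 and 11.20 in TH and 8.12 and 8.09 in TL (8.39-fold, adjusted p = 3.87e-07), and TLR9 (2.47) and TLR7 (1.66), which sense nucleic acids in endosomes, and the adaptor MYD88 (0.59) were higher, 4 of 13 genes of the Toll-like receptor family with 0 lower, also at an unadjusted p below 0.05 (median 0.59), a share of higher calls below that of all RefSeq genes, and against the spike-in probes 2 were higher and 6 lower (median -0.54). TLR2 and TLR4, the surface receptors for bacterial lipoproteins and lipopolysaccharide, were both at -0.01 and not called. Of 17 interferon-stimulated genes 10 were higher and 1 lower (median 0.67, between 0.17 and 1.29 in the other scalings), and without TL replicate 1 or 2 the higher calls were 4, without a TH array 5, and without a DL array 6. OASL, an antiviral protein related to oligoadenylate synthetases, had 11.47 and 11.48 in TH and 9.33 and 9.37 in TL (4.35-fold), the factors IRF7 (1.94) and IRF3 (1.86), the RNA sensor DDX58 (1.43) and MX1 (1.10) were higher, and MX2, which blocks viral nuclear entry, had 11.02 and 11.00 in TH and 12.18 and 12.20 in TL (2.26-fold lower).

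Of 15 genes of antigen presentation 6 were higher and 0 lower, 3 at an unadjusted p below 0.05 (median 0.22, -0.27 after centering on RefSeq-target members), and 2 higher calls were left without a TH array and 3 without a TL array. TAP1, the peptide transporter, had 13.41 and 13.43 in TH and 11.10 and 11.11 in TL (4.97-fold, adjusted p = 4.02e-07), and the immunoproteasome subunits PSMB8 (1.33) and PSMB9 (0.76) rose. The class II genes SLA-DRB1 (0.88) and SLA-DQB1 (0.70) rose too, although SLA genes vary between pigs in sequence, which a probe cannot separate from level. The macrophage list had 3 of 9 higher and 0 lower, 1 at an unadjusted p below 0.05 (median 0.26, -0.43 against the spike-in probes), namely CTSD, the lysosomal cathepsin D, with 16.22 and 16.23 in TH and 15.17 and 15.11 in TL, CD14 (0.63) and SIGLEC1 (0.63), and 1 was left without any 1 array.

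Among 28 cytokine, chemokine and receptor genes 7 were higher and 5 lower (median 0.31, -0.66 against the spike-in probes). IL4R, a receptor chain for interleukins 4 and 13, had 9.10 and 9.03 in TH and 7.15 and 7.11 in TL (3.83-fold), and IL6R (1.36), IL16 (1.04), TNF (1.09), CCL20 (1.23) and CCL21 (1.47) were higher. The neutrophil attractants CXCL2 (13.96 and 13.95 in TH and 15.64 and 15.59 in TL, 3.15-fold lower) and CXCL8 (-1.33) and the alarmin IL1A (-1.34) were lower. Without any 1 array 3 to 5 higher and 3 lower calls were left. Of 18 complement genes 7 were higher, such as the terminal components C8A (2.17), C9 (1.33) and C7 (1.08), and 4 were lower, such as C6 (10.64 and 10.69 in TH and 12.14 and 12.21 in TL) and the regulator CD55 (-0.78), with a median of -0.03 and 0.62 in signals scaled to the 75th percentile. Without a TL array 2 higher and 0 lower complement calls were left, and without a TH array 4 and 0.

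Cell cycle genes were mostly higher in TH. Of 12 measured genes 10 were higher and 0 lower (1 at an unadjusted p below 0.05), with a median of 1.01 (1.25, 0.52 and 0.12 in the other scalings, in the order above). CCND3, a G1 cyclin, had 12.09 and 12.11 in TH and 10.43 and 10.34 in TL (3.28-fold, adjusted p = 1.53e-06), though 2 probes with other targets gave -2.21 and 0.74. The mitotic genes AURKA (1.34), CDK1 (1.10), CCNB1 (1.02) and TOP2A (0.69), the G1 kinase CDK4 (1.26) and the checkpoint gene MDM2 (0.99) were higher, and CDKN1B, a cyclin-dependent kinase inhibitor, was at -0.22 (not called). Against the spike-in probes 2 were higher and 1 lower, and without TL replicate 1 or 2 the higher calls were 4.

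Growth factor genes had a smaller share of higher calls than cell cycle genes. Of 10 genes of the IGF axis 3 were higher and 0 lower, 1 at an unadjusted p below 0.05 (median 1.05, -0.24 against the spike-in probes), and 3 or 4 were called without any 1 array. IGFBP2, a binding protein of IGFs, had 14.06 and 14.09 in TH and 11.39 and 11.40 in TL (6.42-fold, adjusted p = 3.84e-07), and IGF2 had 1.39 with its 5 further probes between 0.70 and 2.28. Of 14 TGF-β and BMP genes 6 were higher and 3 lower (median 0.32, -0.67 against the spike-in probes), with BMP7 at 9.86 and 9.85 in TH and 8.62 and 8.58 in TL (-0.16 against the spike-in probes), the receptor TGFBR1 at 1.16 and the signal transducer SMAD3 at 11.66 and 11.64 in TH and 12.30 and 12.30 in TL. SMAD3 was called in no fit without 1 array. Without TL replicate 2 the calls of this list were 0 and 0, and without TH replicate 1 or 2 or TL replicate 1 they were 1 and 0.

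Of 10 genes of glycolysis and pyruvate metabolism 5 were higher and 1 lower (median 0.46, and 2 and 2 with a median of -0.19 against the spike-in probes), and 3 and 1 were left without any 1 array. Pyruvate carboxylase, PC, had 9.26 and 9.26 in TH and 7.02 and 7.12 in TL (4.56-fold), and the glycolytic GPI (1.73), TPI1 (1.47), PFKM (0.68) and LDHA (0.43) were higher, while PDK4, a kinase that inhibits pyruvate dehydrogenase, had 12.23 and 12.23 in TH and 13.97 and 14.01 in TL (3.39-fold lower). PDK1 and PDK4, which act on the same enzyme, thus changed in opposite directions. Of 11 genes of oxidative phosphorylation only ATP5G1, a subunit of ATP synthase, was called, with 16.22 and 16.21 in TH and 15.32 and 15.30 in TL, with 0 lower also at an unadjusted p below 0.05, and the median was 0.24 (-0.25 after centering on RefSeq-target members). In signals scaled to the 75th percentile 9 of the 11 were higher, with a median of 1.0, and ATP5G1 was called in 2 of 8 fits without 1 array.

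Of 24 genes of fat storage and lipid uptake 11 were higher and 1 lower (median 0.44, and 3 and 7 with a median of -0.41 against the spike-in probes). SREBF1, a transcription factor for lipid synthesis, had 13.35 and 13.14 in TH and 10.79 and 10.75 in TL (5.56-fold), and the lipid droplet gene PLIN1 (at least 2.89-fold, not well above background in TL) and the lipases PNPLA2 (1.86) and LIPE (1.48) were higher. CD36, a fatty acid receptor also found on macrophages and capillaries, had 13.82 and 13.80 in TH and 14.70 and 14.73 in TL and was lower. LPL (-0.04) and FABP4 (0.26) were not called. Without a TH or a TL array the higher calls were between 4 and 6. Of 16 xenobiotic enzymes 9 were higher and 2 lower (median 0.79, and 2 and 7 with a median of -0.09 against the spike-in probes). These include CYP2E1, CYP2D25 (2.92) and CYP4A21 (7.96 and 7.93 in TH and 4.27 and 4.46 in TL, well above background on 1 TL array), and on the lower side the carboxylesterase CES1 (11.26 and 11.23 in TH and 12.25 and 12.25 in TL) and FMO1 (-0.98). The higher calls were 4 without a TL array and 5 without a TH array.

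Of 18 antioxidant genes 7 were higher and 3 lower (median 0.44, -0.15 against the spike-in probes), and 0 to 3 higher and 1 lower calls were left without any 1 array, the 0 being without TH replicate 1, and GPX6 was called in none of these fits. The quinone reductase NQO1 (1.56) and the peroxidases GPX2 (1.77) and GPX6 (7.65 and 7.59 in TH and 5.65 and 5.87 in TL) were higher, and HMOX1, catalase (CAT, -0.40) and metallothionein MT1A (-0.53) were lower. Heat shock genes had 0 of 8 higher (1 at an unadjusted p below 0.05) and 3 lower (median -0.18, and 4 higher and 3 lower with a median of 0.29 in signals scaled to the 75th percentile), HSPA6, HSPH1 (-1.90) and HSP90AA1 (-1.35), and all 3 calls were made without any 1 array. The constitutive chaperones HSP90B1 (0.18) and CALR (-0.12) were not called. Of 9 iron and erythroid genes hemopexin, which binds free heme, was higher with 13.20 and 13.19 in TH and 11.30 and 11.28 in TL (3.73-fold) and transferrin was lower, and ferritin heavy chain (FTH1) was at -0.02 with all 10 probes between -0.29 and 0.06. The median of this list was -0.02, and 0.39 in signals scaled to the 75th percentile.

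Structural genes showed both directions. Of 13 collagen and matrix genes 6 were higher and 3 lower (median 0.19, -0.64 against the spike-in probes), with the integrin ITGB3 at 11.76 and 11.84 in TH and 9.87 and 9.94 in TL (3.72-fold), COL10A1 at 1.63, SPARC at 1.46 and COL5A1 at 1.23, and with SPP1, osteopontin, lower at 12.33 and 12.30 in TH and 14.01 and 13.94 in TL and the proteoglycan decorin (DCN) lower (-0.88). Without a TL array 2 higher and 1 lower were left. Of 10 metalloproteinase genes 6 were higher, such as MMP9, MMP12 (1.38) and the inhibitor TIMP1 (1.36), and ADAMTS1 was lower with 13.45 and 13.51 in TH and 15.18 and 15.13 in TL (list median 0.67, -0.28 against the spike-in probes). The lowest difference of this list, -3.64, belonged to a gene that was not called, and 2 genes were lower at an unadjusted p below 0.05. The higher calls were 2 or 3 without any 1 array.

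Skeletal muscle genes, which mark muscle in a lung piece, had 9 of 17 higher and 0 lower (3 at an unadjusted p below 0.05), with a median of 0.72 (0.55, 0.23 and -0.57 in the other scalings). MYOZ3, a protein of fast fibers, had 10.07 and 10.07 in TH and 7.28 and 7.34 in TL (6.79-fold), MYL1, not well above background in TL, was higher by at least 2.44-fold and TNNI2 by a difference of 1.0, while ACTA1, the main actin of this tissue, was at -0.27 and MYH7 of slow fibers at -0.65, neither called. Their summed level was 13.72 and 13.71 in TH and 13.07 and 13.05 in TL (log2), and without a TH or TL array 4 calls were left. Ribosomal protein genes, with 26 measured, had 3 higher and 0 lower (2 at an unadjusted p below 0.05) and a median of 0.22, and 1 call was left without any 1 array. In signals scaled to the 75th percentile 19 were higher with a median of 0.86, and after centering on RefSeq-target members the median was -0.27. RPS3 had 17.74 and 17.76 in TH and 16.85 and 16.87 in TL.

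The same contrast in Duroc pigs, DH minus DL, served to show where the altitude difference of Tibetan pigs differed from it. At the same FDR 3667 of the 33559 probes were called in Duroc pigs, 2135 higher and 1532 lower in DH, and 374 of the RefSeq-target probes, with medians of -0.01 and -0.03. The interaction, (TH minus TL) minus (DH minus DL), was called for 10104 probes, 862 of them with a RefSeq target. This interaction lies along the contrast between the slides, and the 2 cannot be told apart. Among the 94 probes named here by rule the interaction was called for 77, with 46 values above 0 and 31 below 0. TH minus TL is a part of the interaction and was used to choose most of these probes, so that nothing is read from that count.

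These genes showed different patterns. In the first the difference was found in Tibetan pigs and hardly in Duroc pigs: TNNI3 had -2.58 in Tibetan and 0.18 in Duroc pigs (interaction -2.76 ± 0.043, SE), and CD79A had 4.20 and -0.23 (interaction 4.43 ± 0.052). In the second the breeds differed in sign and both differences were called: TFF1 had 5.10 and -4.10. Its interaction was 9.20 ± 0.19, and DH was not well above background, so that -4.10 and 9.20 are against background. HIF1A had 0.73 and -0.28 (interaction 1.01 ± 0.054), but its Duroc difference was not called, like those of TNNI3 and CD79A. In the third both breeds moved in 1 direction: AQP4 had -1.62 and -1.67 (interaction 0.05 ± 0.06, not called), PMAP-36 had -2.38 and -2.64 (interaction 0.26 ± 0.081, not called), and VEGFA had -0.65 and -0.33 (interaction -0.32 ± 0.038, not called). RGS5 and CYP2E1 also shared their direction, but the difference was larger in Tibetan pigs, 4.42 against 1.83 and 3.11 against 1.20.

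The mean of both breeds' altitude differences, in which an additive difference between slides cancels, gave 5002 probes higher and 4373 lower at high altitude at the same FDR, of which 772 and 318 had a RefSeq target. Among the 94 named probes 69 were called in this mean. TH minus TL is a part of this mean and was used to choose most of these probes, so that nothing is read from that count or from a shared direction. They include AQP4 (-1.65 ± 0.03, SE), VEGFA (-0.49 ± 0.019), EDN1 (0.87 ± 0.022), PDK1 (1.01 ± 0.026), RGS5 (3.13 ± 0.053), HSP70.2 (-1.94 ± 0.032) and LYZ (-1.80 ± 0.019). HIF1A (0.23 ± 0.027) and BMP7 (0.34 ± 0.026) were not called in it. This mean holds the Duroc values too and is not the Tibetan difference itself.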

How the data were processed

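Lung RNA of 8 pigs was hybridized to 8 Agilent 1-color arrays of 45220 spots, 2 per group, and groups were taken from the labels. The authors extracted the spot intensity with Agilent Feature Extraction, of which the file headers give version 10.7.3.1 and the labels 9.1, and deposited the median spot signal, local background and a processed signal as intensity. A further table, deposited by the authors, holds log2 values that the methods call RMA normalized. Its ranks follow the processed signals (Spearman's rho at least 0.99998 on every array) and its background step is not given in the sources used here. These deposited log2 values were the measure used here.

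Probes well above background on at least 1 of the TH and TL arrays were kept (33559), control probes were left out, and spots of 1 probe (50 probes with 5 spots) were taken as detected by majority. No spot was saturated, and arrays had from 12 to 44 outlier spots. RefSeq accessions of the array design gave a symbol to 2445 of 2959 RefSeq-target members (1736 genes) through the RefSeq gene table of Sscrofa11.1. Single probes with other targets were named from the study's tables, and both sources gave the same symbol in 98.0% of 660 probes named by both. A gene was represented by its brightest RefSeq-target probe.

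Group means were fitted over all 8 arrays (4 residual degrees of freedom) with limma 3.58.1 (R 4.3.3) under moderated variances, and p-values were adjusted by Benjamini-Hochberg over the 33559 probes, at the FDR below 0.0001 of the study. Slide could not be entered as a block, since it is a combination of the 4 groups. On simulated data for TH minus TL over 33559 probes with 200 changed, at FDR below 0.0001 limma recovered 2 of 100 differences of 1 and 40 of 100 differences of 2 log2 units with 0 false calls, and at FDR below 0.05 it recovered 73 and 85 of 100 with 7 false calls. Far more probes were called in the data (13107), and the Benjamini-Hochberg cutoff loosens as more probes differ. The recovered shares are therefore not those of TH minus TL in the data, where the median size of a called difference was 1.24. Pigs are the replicates, and with 2 arrays a group the precision is limited.

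The genes named were, by rule, the 12 RefSeq genes with the largest difference in each direction among those called and well above background on all 4 arrays, up to 5 in each direction detected in 1 group alone, 5 named probes with other targets in each direction, the extremes of each of 30 gene lists, 11 fixed genes of hypoxia and lung, and the genes nearest to 5 percentiles. Other genes are named as members of these lists. Values of some genes chosen by these rules are not reported here, though the counts include them. The members and the lists were chosen with earlier results of these data known. Alternatives were other scalings, background corrections, filters, models and thresholds, a replicate block, and fits that each lacked 1 array. Python 3.11.15 (pandas 2.3.3, numpy 2.4.6) was used for summaries.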

Additional observations from a re-analysis of the deposited data

Results flagged for a closer look

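The altitude difference of Tibetan pigs differed from that of Duroc pigs, by limma's interaction at FDR below 0.0001, for 77 of the 94 probes named by rule, 46 with a value above 0 and 31 below 0. Over all 33559 probes the interaction was called for 10104. TH minus TL is a part of it and was used to choose most of the 94, so that nothing is read from the count of 77. The interaction, (TH minus TL) minus (DH minus DL) in log2 units, lies along the contrast between slides, and the 2 cannot be told apart for any of the values below.

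Of the RefSeq genes with the widest differences, interactions above 0 were found for NPW (4.95), CD79A (4.43), MC1R (4.38), PRM2 (3.54), MADCAM1 (3.46), PLTP (3.28), PGLYRP1 (3.20), TAC3 (2.78), FABP7 (2.62), RGS5 (2.58), CD70 (2.32) and CYP2E1 (1.91). Those below 0 were IFNE (-3.28), NR4A3 (-3.17), TNNI3 (-2.76), KLF5 (-2.56), DMP1 (-2.49), SRSF5 (-2.23), HSP70.2 (-2.0), HSPA6 (-1.91), TTC14 (-1.80) and LYZ (-0.56). Probes with other targets gave values above 0 for COPA (10.07), TFF1 (9.20), LOC100037924 (7.79), COIL (5.65) and LOC102164588 (4.22). They gave values below 0 for CA8 (-5.13), LOC100512873 (-4.67) and CALD1 (-4.42).

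Of the genes named for their lists, their detection in 1 group, their place in the range or their role in hypoxia, values above 0 belonged to SCG2 (6.35), PI3 (5.96), TLR10 (3.49), KLK1 (3.33), EGLN3 (3.0), HTR1F (2.87), SREBF1 (2.61), GPX6 (2.46), IGFBP2 (2.11), MYOZ3 (2.04), MMP9 (1.91), IL4R (1.87), OASL (1.84), PC (1.83), BMP7 (1.81), ACE (1.80), PDK1 (1.79), ITGB3 (1.54), TAP1 (1.51), HPX (1.23), HSD17B2 (1.19), CCND3 (1.08), CTSD (1.04), HIF1A (1.01), CCL19 (1.0), EDN1 (0.96), RPS3 (0.74), APTX (0.70) and FLT1 (0.67). Values below 0 belonged to NPPB (-3.47), CES1 (-2.17), PDK4 (-2.03), DIO2 (-2.01), CXCL2 (-1.95), PGR (-1.51), ADAMTS1 (-1.48), SPP1 (-1.41), HMOX1 (-1.34), SMAD3 (-1.21), TF (-1.08), MX2 (-1.04), SFTPA1 (-1.02), SFTPB (-0.87), CD36 (-0.74) and NOS3 (-0.56). The genes with the largest interactions, COPA, TFF1 and LOC100037924, had probes with other targets than RefSeq transcripts. Of the probes given here 10 were not well above background on either array of at least 1 group, those of SCG2, PI3, KLK1, HTR1F, NPPB, PGR, DIO2, FABP7, IFNE and TFF1, and their values are differences against background rather than measured sizes.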

How the results depend on the processing

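The count of called probes (all, RefSeq-target and other probes in this order) was 13107, 1304 and 11803. It was 26214, 2449 and 23765 at FDR below 0.05, and 23351, 2223 and 21128 at FDR below 0.01. With the TH and TL arrays alone limma called 0, 0 and 0, with 26522, 2441 and 24081 at an unadjusted p below 0.05. Leaving out 1 array gave between 4638 and 8877, between 447 and 835, and between 4186 and 8042, and the model without moderation called 7838 other probes. With the replicate block the counts were 7661, 732 and 6929. The replicate numbers do not pair the samples (correlation of same-numbered deviations 0.091 for TH with TL), so that this block rests on a shared number alone. Other filters, the other scalings, background corrections and the intensity trend kept these counts within 1.5 times.

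The median difference of RefSeq-target members moved from 0.36 to 0.61 with processed signals scaled to the 75th percentile. It was 0.32 and 0.16 with raw signals corrected by a normal-exponential model without an offset or with local background and an offset of 50. Against the spike-in probes it turned to -0.51. After centering on RefSeq-target members it was -0.13, but that step makes their median equal on all arrays, so its sign is not read. Of the 94 named probes 13 changed sign in some setting. Scaled to the 75th percentile these were SFTPA1 (0.12), EPAS1 (0.46), NOS3 (0.60), SFTPB (0.54), SFTPC (0.46), HBB (0.035), GP91-PHOX (0.051) and GATA6 (0.29). Against the spike-in probes they were FLT1 (-0.78), BMP7 (-0.16), EGLN1 (-0.37), HSD17B2 (-0.24) and APTX (-0.22), and after centering on RefSeq-target members EGLN1 (-0.17) and HSD17B2 (-0.13). Of 86 named calls 60 were made in all 8 fits without 1 array and 26 were not in some, of which HIF1A, SFTPA1, FLT1, SMAD3, GPX6, DIO2 and GP91-PHOX were called in none. All 86 lost their call with the 4 arrays alone. The cause of these shifts was not tested.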

Other observations

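Further groups were put together after their values had been seen, and are given as values only. Their counts stand beside the 35.1% of RefSeq genes called higher and the 10.1% called lower. They were counted in the deposited values alone, without the other scalings or the fits that lacked 1 array. Genes of the immediate early and stress response were mostly lower in TH: of 8 measured, 5 were called lower and 0 higher, with a median of -0.87. Beside KLF5 and NR4A3 these were KLF6 (-1.18), the AP-1 subunit JUN (-1.05) and the antiproliferative BTG2 (-0.70), whereas KLF4 (-0.46), MYC (0.10) and GADD45A (0.80) were not called. Of 7 cardiac muscle genes 4 were not well above background on either TH array, namely MYL2 and NPPB, which were called lower, and MYOZ2 and CSRP3, which were not called. These entered through TL alone, so no median is given. Of the 3 well above background on all 4 arrays TNNI3 was called lower, and PLN (0.06) and ATP2A2 (0.08), which are not restricted to heart, lay near 0. Of 11 splicing factor genes 6 were called lower and 1 higher. SRSF5, PNISR (-1.66), TRA2A (-1.38), SRSF11 (-1.09), SRSF1 (-0.70) and TRA2B (-0.42) were lower, and SRSF2 (0.69) was higher, although the RefSeq-target probes of SRSF1 were called in opposite directions.

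Of 13 germ cell and gonadal genes, which are known from ovary and testis, 8 were well above background on all 4 arrays. Of these PRM2, BMP15 (2.96), ZP3 (2.83), AMH (1.33) and CYP19A1 (0.74) were called higher, and PRM1 (1.52), GDF9 (0.43) and SPAG6 (0.21) were not called. SPAG6 is also the ciliated cell gene given above and is not particular to gonads. Of 8 genes of digestive tract and pancreas 5 were well above background on all 4 arrays, of which CCK (2.02) and FABP1 (1.68) were called higher and GAST (1.69), CPA1 (0.07) and AMY2 (-0.46) were not called. These differences stand beside the medians of all RefSeq-target probes of like brightness in log2 value. Those were 0.62 below 6, 0.76 between 6 and 8, 0.75 between 8 and 10, 0.62 between 10 and 12, and 0.14 between 12 and 14.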
